A study of Homo sapiens with 12 samples.

Results

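The S100 genes described here are 10 members of a family of small calcium-binding proteins: S100A4, S100A6, S100A8, S100A9, S100A10, S100A11, S100A12, S100A13, S100P and S100B. They were chosen by symbol. A probe set is a group of array probes for a transcript, and 15 probe sets were listed with only such a symbol. Where a gene had more than 1, the one of highest mean (all 12 arrays) was taken. The 10 genes are 10 of the 19775 genes measured and 10 of the 20 S100 genes on the array.

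RNA came from U937 cells, an established human leukemia line with monocyte-like features, grown in RPMI medium with serum, in 4 groups of 3 arrays. The control group, called vehicle here, was exposed to DMSO, and the other groups were exposed to JS-K, a compound from which cells set nitric oxide free, for 90 min, 4 h or 24 h. The dose of JS-K and the duration of the DMSO exposure are not given in the sources used here, so time in culture cannot be told apart from JS-K. The labels call the replicates biological without saying whether they were separate cultures, and the p-values cover only how far these samples spread. In such bulk samples fewer cells of a type and less RNA per cell cannot be told apart. The question addressed is how the S100 genes of these cells differed between vehicle and each time of JS-K.

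S100 proteins carry paired EF-hand loops, which bind calcium, and most work as dimers that bind partner proteins when calcium rises. S100A8 and S100A9 form calprotectin, a major cytosolic protein of neutrophils and monocytes that binds zinc and manganese and, once released, acts on TLR4 and on the receptor AGER. S100A12 is a granulocyte and monocyte relative of the same kind. S100A10, which has lost calcium binding, and S100A11 pair with annexins at membranes, S100A4 binds non-muscle myosin and S100A6 binds CACYBP. S100B is best known from glial and melanocytic cells.

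Levels are log2 values as deposited, differences are log2 differences ± the standard error (SE) of the fit between means of 3 arrays and 3 arrays. The threshold for a call was an adjusted p of 0.05 (limma, Benjamini-Hochberg over all 19775 genes). A level under 4 is low signal. It lies near the trp probe sets, for which no RNA was added and which averaged 2.53 in vehicle and 2.63 at 24 h. No filter on level was set, so all 10 members were tested, and 9 of them had a mean of at least 4. S100B is among the 9 (mean 4.01) only through its 24 h group (4.62). Its means in vehicle, 90 min and 4 h were 3.62, 3.92 and 3.90.

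More of the S100 genes were called higher at each later time. At 90 min 2 of the 10 were higher than in vehicle (S100A8 and S100A9), at 4 h 4 (these and S100A10 and S100A11) and at 24 h 8, all but S100P and S100A13. Over all genes, 4.03% were called higher at 90 min, 23.9% at 4 h and 17.8% at 24 h, and among genes with a mean of at least 4 the shares were 8.05%, 14.7% and 25.9%. The 8 called at 24 h include S100A12 (mean 2.67), outside that last set, and S100B, in it only through 24 h. The median difference of the 10 was 0.08, 0.18 and 0.99 at the 3 times, against 0.01, 0.06 and 0.06 over all genes. By limma 0 members were lower at any time, and 0 were lower at an unadjusted p under 0.05 either, while 5.62%, 16.6% and 18.9% of all genes were called lower. Between JS-K times, 2 members rose from 90 min to 4 h (3.33% of all genes) and 7 from 4 h to 24 h (12.8%), and 7 were higher at 24 h than at 90 min (14.6%). The moderated F test over the 4 groups called the same 8 genes as the comparison of 24 h with vehicle (38.1% of all genes were called).

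**Figure D1:**
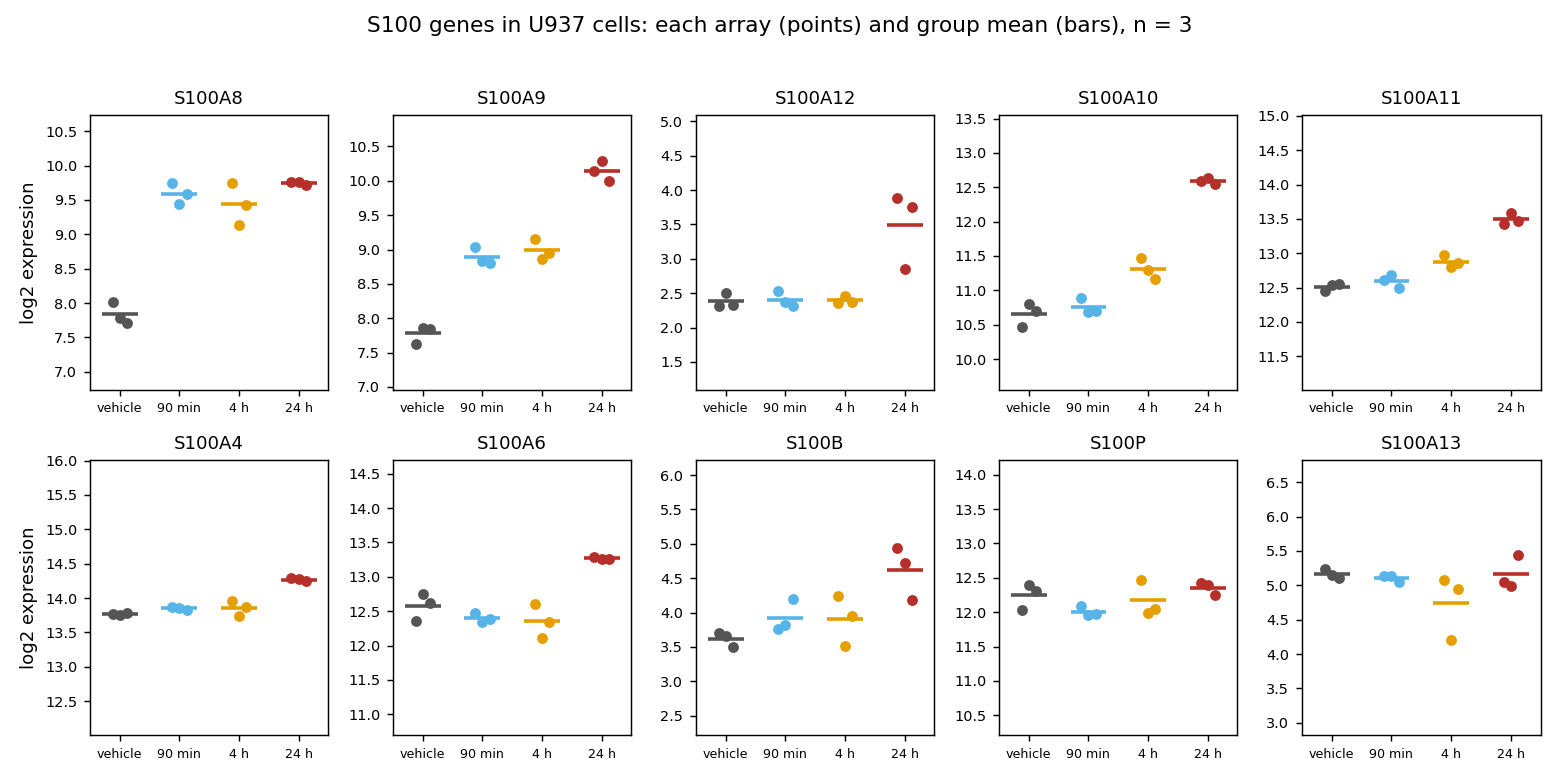
Each panel plots the log2 level of 1 S100 gene (vertical axis, each panel spans the same number of log2 units) on every array, with points for the 3 arrays of vehicle, 90 min, 4 h and 24 h of JS-K and a bar for the mean of each group. S100A8 and S100A9 leave the vehicle level at 90 min, S100A10 and S100A11 at 4 h, and the 24 h arrays of S100A4 (14.24 to 14.29) and S100A6 (13.26 to 13.29) lie above all others of their gene.

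Arrays differed in ways the groups share. Poly-A spikes, control RNAs added to a sample, had a mean of 3.04 in vehicle, 3.08 after 90 min, 7.02 after 4 h and 8.47 after 24 h, hybridization spikes a mean of 9.96, 10.03, 10.21 and 11.70, 28S ribosomal RNA (3 probe sets) 6.59, 6.37, 6.45 and 8.03, and the 3' minus 5' difference of ACTB, a measure of RNA quality, 0.80, 0.83, 0.96 and 0.96. Their part in the results at 4 h and 24 h was not tested. The vehicle and 90 min arrays differed in the spikes by less than their spread (SD 0.05 and 0.06). Replicate 2 of the 4 h group had the highest array median (3.10, against 2.84 to 2.99) and the lowest upper quartile (6.20). It gave the lowest value of its group for 8 of the 10 S100 genes, and replicate 1 gave the highest for 9. Of the myeloid markers, LYZ (13.64), ELANE (13.61) and AZU1 (12.09) were high in vehicle, SPI1 was at 5.75 and MPO near background (2.37). CD33 and CD68, also listed, had no value here. Of the markers measured for T, B, erythroid, epithelial, endothelial and glial or melanocytic cells, 0 of 15 reached 4 in any group, and of 3 fibroblast markers COL1A1 did (5.09 to 5.37).

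S100A8 (probe set 202917_s_at) measured 8.02, 7.78 and 7.71 on the vehicle arrays, 9.75, 9.44 and 9.58 at 90 min, 9.75, 9.13 and 9.43 at 4 h, and 9.76, 9.77 and 9.71 at 24 h. Every JS-K array lay above every vehicle array, as for 12.9%, 51.3% and 60.6% of all genes at the 3 times taken singly. The 3 JS-K groups overlapped each other in part. The rises over vehicle were 3.37-fold at 90 min (1.75 ± 0.14, adjusted p = 8.74e-06), 3.04-fold at 4 h (1.60 ± 0.14, adjusted p = 6.21e-06) and 3.76-fold at 24 h (1.91 ± 0.14, adjusted p = 2.91e-07). None of the differences between JS-K times passed the test (−0.15 ± 0.14 from 90 min to 4 h, 0.31 ± 0.14 from 4 h to 24 h, adjusted p = 0.402 and 0.161). Without 4 h replicate 1 the last of these was 0.47 and passed (adjusted p = 0.0155). The difference at 90 min was 91.8% of the difference at 24 h on the log2 scale.

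S100A9 (203535_at), its partner in calprotectin, measured 7.63, 7.86 and 7.85 in vehicle, 9.03, 8.84 and 8.80 at 90 min, 9.15, 8.86 and 8.95 at 4 h, and 10.15, 10.29 and 10.00 at 24 h. Here the 24 h arrays stood above those of every other group. Of all genes, 60.6% had 24 h wholly above vehicle, 59.7% above 90 min and 15.9% above 4 h. The rises over vehicle were 2.16-fold at 90 min (1.11 ± 0.11, adjusted p = 4.91e-05), 2.31-fold at 4 h (1.21 ± 0.11, adjusted p = 7.73e-06) and 5.16-fold at 24 h (2.37 ± 0.11, adjusted p = 5.85e-09). S100A9 did not differ beyond its spread between 90 min and 4 h (0.10 ± 0.11, adjusted p = 0.491) and rose again from 4 h to 24 h by 1.16 ± 0.11 (adjusted p = 5.55e-06). The 90 min difference was 46.9% of that at 24 h. Whether S100A8 and S100A9 differ in this later step was not tested. The calls of both genes against vehicle held in all alternatives run (23 at 90 min, 22 at 4 h and 24 h, adjusted p up to 0.00115).

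S100A12 (205863_at), the third member of the calgranulin group, lay near background until 24 h. Its values were 2.31, 2.51 and 2.33 in vehicle, 2.53, 2.37 and 2.32 at 90 min, 2.36, 2.46 and 2.38 at 4 h and 3.88, 2.85 and 3.76 at 24 h. All 3 arrays at 24 h were above the other 9, but replicate 2 was well below the other two, and all stayed under 4. Of all genes, 60.6% had the 24 h arrays wholly above vehicle and 15.9% had them wholly above 4 h. The difference of 24 h from vehicle was 1.12 ± 0.20 (adjusted p = 0.000561). As both ends are low signal it is not read as a fold.

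S100A10 (200872_at), the partner of annexin A2 (ANXA2) in a surface complex that binds plasminogen, measured 10.47, 10.81 and 10.70 in vehicle, 10.89, 10.69 and 10.70 at 90 min, 11.47, 11.29 and 11.16 at 4 h and 12.59, 12.64 and 12.54 at 24 h. Vehicle and 90 min overlapped, while 4 h and 24 h each lay wholly above the group before (as for 38.1% and 15.9% of all genes). Against vehicle the gene gave 0.10 ± 0.10 at 90 min (adjusted p = 0.836) and rose by 0.65 ± 0.10 at 4 h (1.57-fold, adjusted p = 0.000355) and 1.93 ± 0.10 at 24 h (3.82-fold, adjusted p = 1.06e-08). The steps from 90 min to 4 h (0.55 ± 0.10, adjusted p = 0.00278) and from 4 h to 24 h (1.28 ± 0.10, adjusted p = 8.87e-07) both passed.

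A second probe set of S100A10 (238909_at), of lower signal, moved in the same direction. It measured 2.94, 2.58 and 3.13 in vehicle, 3.71, 3.66 and 4.20 at 90 min, 5.48, 5.57 and 5.53 at 4 h and 6.65, 6.78 and 6.61 at 24 h. In a fit of every probe set it was already called at 90 min (0.97 ± 0.18, adjusted p = 0.00620), and the mean of both probe sets was called then too (0.53, adjusted p = 0.00228). The brighter probe set was not, so the first time at which S100A10 passes rests on which of them is read.

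S100A11 (200660_at), which pairs with annexin A1 (ANXA1), measured 12.45, 12.54 and 12.55 in vehicle, 12.62, 12.68 and 12.49 at 90 min, 12.97, 12.80 and 12.86 at 4 h and 13.43, 13.58 and 13.48 at 24 h. It had the same order of groups as S100A10, with smaller steps. The rises over vehicle were 0.36 ± 0.06 at 4 h (1.29-fold, adjusted p = 0.00131) and 0.98 ± 0.06 at 24 h (1.98-fold, adjusted p = 1.04e-07). At 90 min the difference was 0.08 ± 0.06 (adjusted p = 0.687). The step from 90 min to 4 h (0.28 ± 0.06, adjusted p = 0.0142) did not pass without 90 min replicate 3 (0.0718), with array medians subtracted (0.127) or in a fit of these groups alone (0.0665). Across the 12 arrays S100A10 and S100A11 had the highest Pearson r of all 45 pairs of members (0.988), a description of values that share their arrays and group means.

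S100A4 (203186_s_at), a regulator of non-muscle myosin and cell movement, held 13.76, 13.75 and 13.79 in vehicle, 13.87, 13.85 and 13.82 at 90 min, 13.96, 13.73 and 13.87 at 4 h and 14.29, 14.27 and 14.24 at 24 h. It rose at 24 h alone among the 3 comparisons with vehicle, by 0.50 ± 0.05 (1.41-fold, adjusted p = 5.57e-06). The differences at 90 min (0.08 ± 0.05, adjusted p = 0.512) and 4 h (0.09 ± 0.05, adjusted p = 0.162) did not pass, though the 90 min arrays all lay above the vehicle arrays (as for 12.9% of all genes). Without 4 h replicate 2 the difference at 4 h was 0.15 and passed (adjusted p = 0.0127). It also passed with quantile normalization (0.11, adjusted p = 0.0401) and with array weights (0.17), so in 3 of 22 alternatives.

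S100A6 (217728_at), known as calcyclin, measured 12.35, 12.75 and 12.62 in vehicle, 12.47, 12.35 and 12.39 at 90 min, 12.61, 12.11 and 12.35 at 4 h and 13.29, 13.26 and 13.26 at 24 h. The first 3 groups overlapped and the 24 h arrays stood above them (over vehicle as for 60.6% of all genes, over 4 h as for 15.9%). It rose over vehicle at 24 h by 0.69 ± 0.11 (1.62-fold, adjusted p = 0.000344), after −0.17 ± 0.11 at 90 min and −0.22 ± 0.11 at 4 h (adjusted p = 0.560 and 0.120). Without 4 h replicate 1 the 4 h difference was −0.35 and passed as a fall (adjusted p = 0.0285). The other probe set of S100A6 (228923_at, mean 3.59) did not share the rise (0.26 ± 0.34 at 24 h, adjusted p = 0.515), and with the mean of both the call at 24 h was lost (0.48, adjusted p = 0.0808).

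S100B (209686_at) had low signal, at 3.70, 3.66 and 3.50 in vehicle, 3.76, 3.82 and 4.20 at 90 min, 4.24, 3.51 and 3.95 at 4 h and 4.94, 4.72 and 4.19 at 24 h. The 24 h arrays lay above vehicle (as for 60.6% of all genes) but reached down into the 90 min and 4 h groups. The rise over vehicle at 24 h was 1.00 ± 0.22 (adjusted p = 0.00273), and as the vehicle arrays are all under 4 no fold is given. Its other probe set (1561521_at, mean 2.76) gave 0.17 ± 0.07 then (adjusted p = 0.0798). The rise from 4 h to 24 h (0.72 ± 0.22, adjusted p = 0.0297) did not pass without 4 h replicate 2 (0.111) or 3 (0.0630) or 24 h replicate 1 (0.128) or 2 (0.0936). GFAP, SOX10 and MLANA, markers of the glial and melanocytic cells for which S100B is best known, lay between 2.23 and 2.68 on every array.

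S100P and S100A13 did not pass at any time. S100P (204351_at), a partner of ezrin, measured 12.03, 12.40 and 12.31 in vehicle, 12.09, 11.96 and 11.98 at 90 min, 12.47, 11.99 and 12.05 at 4 h and 12.42, 12.39 and 12.24 at 24 h. All groups overlapped vehicle. The 24 h difference was 0.11 ± 0.12 (adjusted p = 0.450, 95% confidence interval −0.16 to 0.37), and that of 24 h from 90 min, 0.34 ± 0.12, lay just past the threshold (adjusted p = 0.0505) and passed in 9 of 22 alternatives. S100A13 (202598_at), which takes part in the release of FGF1 and IL1A, measured 5.24, 5.15 and 5.11 in vehicle, 5.14, 5.14 and 5.04 at 90 min, 5.08, 4.21 and 4.94 at 4 h and 5.05, 4.99 and 5.44 at 24 h. Its 4 h arrays all lay below vehicle (as for 18.9% of all genes), with replicate 2 far the lowest, and the difference was −0.43 ± 0.21 (adjusted p = 0.103, interval −0.89 to 0.03). It passed as a fall without 4 h replicate 1 (−0.60, adjusted p = 0.0435). At 24 h it was −0.01 ± 0.21 (adjusted p = 0.964, interval −0.47 to 0.45), which leaves room for a change of this size in either direction.

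**Figure D2:**
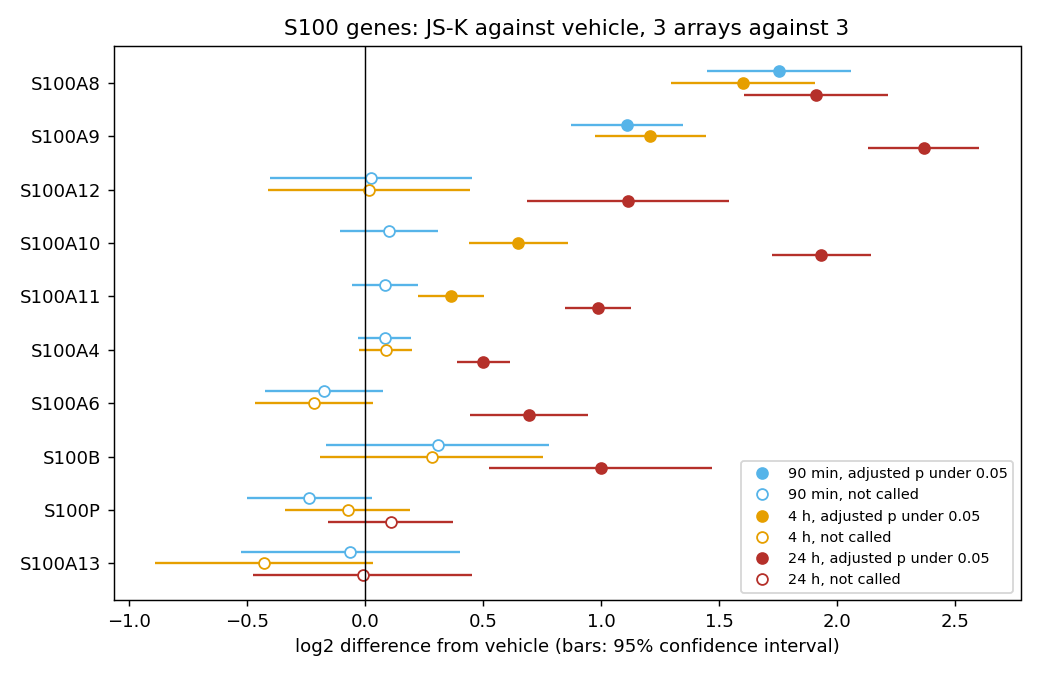
The log2 difference from vehicle (horizontal axis) is drawn for each S100 gene at 90 min, 4 h and 24 h of JS-K, with 95% confidence intervals from the fit as bars; filled points were called at an adjusted p under 0.05. S100A8 sits between 1.60 and 1.91 at all times, S100A9 moves from 1.11 to 2.37, and S100P and S100A13 have intervals that include 0 throughout.

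Of the 10 genes, 8 lie on chromosome 1 (assembly GRCh38.p14) within 1651.4 kb, from S100A10 (151982915 to 151993859) and S100A11 (152032506 to 152037004) to S100A13 (153618799 to 153634361). Among the S100 genes there, S100A9 (153357854 to 153361023), S100A12 (153373711 to 153375621) and S100A8 (153390032 to 153422583) follow each other, and S100A5 (153537147 to 153543685) lies between S100A6 (153534599 to 153535991) and S100A4 (153543621 to 153545806). S100P is on chromosome 4 (6693878 to 6697170) and S100B on chromosome 21 (46598604 to 46605082). At 90 min S100A8 and S100A9 were called, and S100A12, which lies between them, gave 0.02 ± 0.20 (adjusted p = 0.966).

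**Figure D3:**
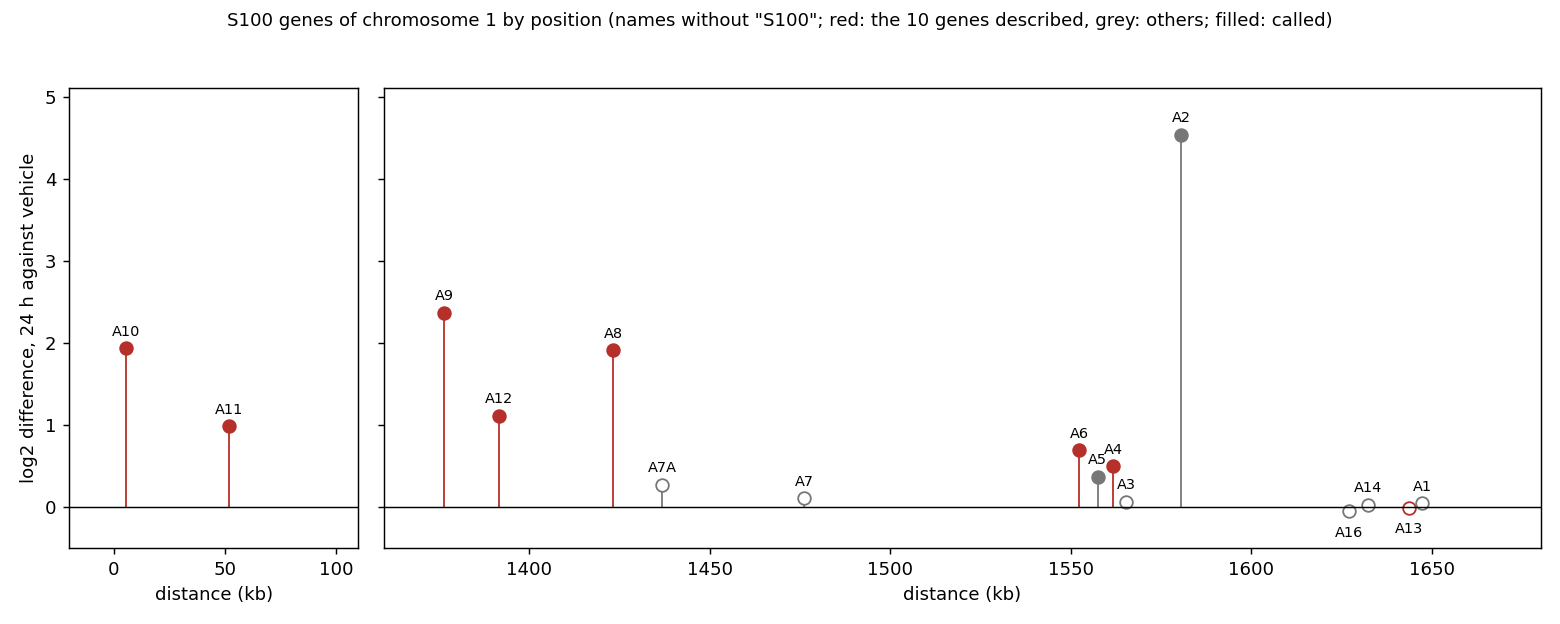
S100 genes of chromosome 1 are placed by distance in kb from the start of S100A10 (horizontal axis, with a stretch without S100 genes left out) and drawn at their log2 difference of 24 h from vehicle (vertical axis). Red marks the genes described here and grey the other S100 genes, filled points were called, and S100A2 (4.54) and S100A9 (2.37) reach highest.

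RefSeq promoter sequences of GRCh38.p14 were on hand for 9 of the 10 genes (13 entries, as S100A8 and S100A13 have several starts), and not for S100B. They are shown to mark a start-site element that was found in some of these genes and not in others. The sequences of S100A4, S100A6 and S100A13 are not printed. Each line gives the bases just before the start on the gene's strand, 5′ to 3′, with TATAAA, the core of the TATA box, in capitals. For S100A8 only the last 30 bases before 1 of its starts are given. These bases and those before them lie downstream of another S100A8 start and can be part of its transcript.
S100A8 (chr1:153391074-153391103, minus strand): cTATAAAaaggagctgcctctcagccctgc
S100A9 (chr1:153357774-153357853, plus strand): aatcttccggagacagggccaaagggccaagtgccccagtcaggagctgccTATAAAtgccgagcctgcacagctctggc
S100P (chr4:6693798-6693877, plus strand): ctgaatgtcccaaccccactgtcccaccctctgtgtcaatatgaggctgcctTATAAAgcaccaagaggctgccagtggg
S100A12 (chr1:153375622-153375701, minus strand): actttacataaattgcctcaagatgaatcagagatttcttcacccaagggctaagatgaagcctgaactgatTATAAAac
S100A10 (chr1:151993860-151993939, minus strand): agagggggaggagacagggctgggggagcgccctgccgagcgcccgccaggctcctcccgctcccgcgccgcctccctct
S100A11 (chr1:152037005-152037084, minus strand): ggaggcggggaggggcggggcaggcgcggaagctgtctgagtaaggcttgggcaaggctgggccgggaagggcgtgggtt

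TATAAA on the gene's strand began 20 to 35 bases before a start in S100A4, S100A8, S100A9, S100A13 and S100P, 5 of the 9 genes, against 2.80% of the 27305 genes in the table. The window of 20 to 35 bases was chosen with these sequences on hand. The element was thus found in S100A8 and S100A9, called at 90 min, in S100A4, called against vehicle at 24 h alone, and in S100P and S100A13, not called at any time. It was not found in S100A10, S100A11 or S100A6. In S100A12 TATAAA lay 8 to 3 bases before the start, outside this window. In the 250 bases before a start, searched on both strands, the C/EBP motif TTGCNNAA was found in S100A11 and S100A12 (9.05% of all 35116 entries), the AP-1 motif TGANTCA in S100A12 (6.57%), the PU.1 core GAGGAA in S100A8 and S100A9 (23.6%), the antioxidant response element TGACNNNGC in S100A13 (10.9%) and TATAAA in 6 genes (10.7%). The percentages are by entry, and by entry these 5 motifs were found in 2, 1, 3, 1 and 7 of the 13 entries of the members. No matches of different motifs overlapped. A match is a description of letters, not of binding.

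The remaining S100 genes of the array were mostly silent. Of 10, 8 stayed under 4 on all arrays, and S100A7A, named for its level, lay between 5.40 and 6.74 with no call against vehicle. S100A2, an S100 gene best known from epithelial cells, was the exception. It measured 2.14, 2.33 and 2.38 in vehicle, 2.30, 2.80 and 2.86 at 90 min, 3.29, 2.96 and 3.07 at 4 h and 6.94, 6.84 and 6.69 at 24 h. Its 24 h arrays stood far above the others, and the rise over vehicle was 4.54 ± 0.15 (adjusted p = 5.32e-10), larger than that of any of the 10 genes above. The vehicle level is near background, so no fold is given. EPCAM, KRT19, CDH1 and KRT14, markers of epithelial cells, lay between 2.23 and 3.36 on every array. At 90 min its difference was 0.37 ± 0.15 (adjusted p = 0.194), and it passed with the replicate number as a block on the vehicle and 90 min arrays (adjusted p = 0.00802). Called among these 10 genes were 0 at 90 min (1 at an unadjusted p under 0.05, limma), where 4.03% of all genes were called higher. Higher were 4 at 4 h (23.9% of all genes) and 3 at 24 h (S100A2, S100A5 and S100Z, against 17.8% of all genes). All but S100A2 among the called had means under 4 in every group and differences of at most 0.37.

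Genes for receptors of released S100 proteins moved apart from each other. Of 11 measured, 3 rose at 90 min, 6 at 4 h and 5 at 24 h, where 1 fell. Beside this list and those below, 4.03%, 23.9% and 17.8% of all genes were called higher at the 3 times. Called lower were 5.62%, 16.6% and 18.9%. The receptors higher at 4 h include CD14, which was near background (2.16 in vehicle, 2.23 at 4 h). TLR4, the receptor through which calprotectin signals, rose by 0.73 ± 0.09 at 90 min (adjusted p = 0.000275), 0.45 ± 0.09 at 4 h and 0.30 ± 0.09 at 24 h, the last passing in 16 of 22 alternatives. LY96, its co-receptor MD-2, rose by 4.77 ± 0.16 at 24 h, from 4.06 to 8.83 (adjusted p = 6.11e-10). The scavenger receptor CD36 rose by 1.88 ± 0.08 at 90 min (adjusted p = 4.66e-08), 1.77 ± 0.08 at 4 h and 0.45 ± 0.08 at 24 h. CD69 rose by 0.42 ± 0.09 at 4 h (adjusted p = 0.00380) and fell by 0.59 ± 0.09 at 24 h. AGER was near background in all groups (2.58 in vehicle, 2.62 at 24 h) and did not pass.

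Among 21 genes for binding partners 5 rose and 2 fell at 90 min, 12 rose and 3 fell at 4 h, and 13 rose and 4 fell at 24 h (median 0.65 then, against 0.06 over all genes). Those higher at 4 h include FGF1 and SYT1, and those higher at 24 h FGF1, both with means under 4 in every group. ANXA1, the partner of S100A11, rose at every time, by 1.91 ± 0.06, 2.54 ± 0.06 and 3.26 ± 0.06. ANXA2, the partner of S100A10, rose by 0.42 ± 0.06 at 4 h (adjusted p = 0.000345) and 1.06 ± 0.06 at 24 h (adjusted p = 3.98e-08), while its rise at 90 min (0.28 ± 0.06, adjusted p = 0.0117) did not pass without 90 min replicate 1 (0.0523) or with array medians subtracted (0.0671). PLAUR and PLAU, the urokinase receptor and urokinase, which activate plasminogen at the cell surface, rose by 2.83 ± 0.10 and 1.89 ± 0.10 at 24 h, and ANXA5 by 1.46 ± 0.08. CACYBP, the partner of S100A6, fell at 24 h by 0.59 ± 0.06.

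**Figure D4:**
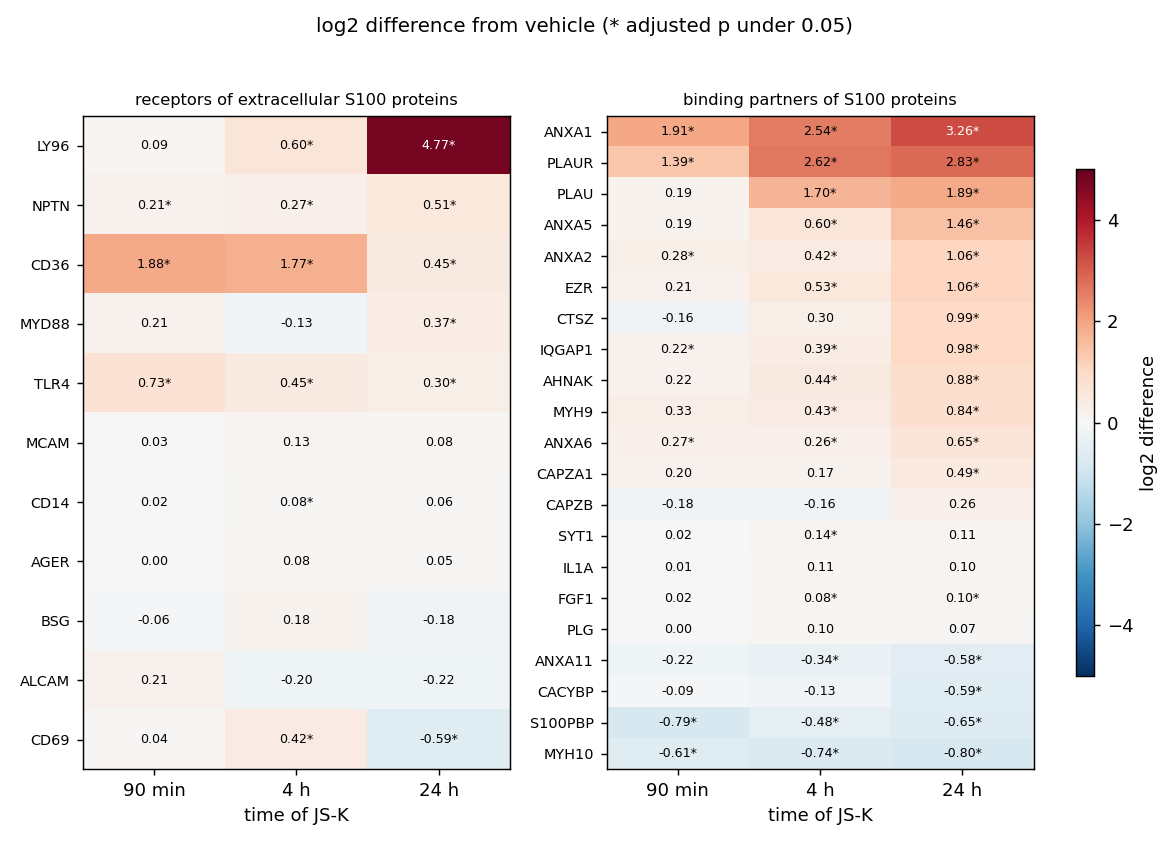
Colour and number give the log2 difference from vehicle for 11 receptor genes (left) and 21 binding partner genes (right) of S100 proteins at 90 min, 4 h and 24 h of JS-K; an asterisk marks an adjusted p under 0.05. LY96 stands out at 24 h (4.77), and ANXA1 rises at each time (1.91, 2.54 and 3.26).

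Of 10 myeloid transcription factors 2 rose and 2 fell at 90 min, and 5 rose and 3 fell at both 4 h and 24 h. CEBPD, among those higher at 4 h, had means under 4 in every group (2.73 in vehicle, 3.00 at 4 h). CEBPE, a factor of late granulocyte maturation, rose by 0.64 ± 0.13 at 90 min and 1.44 ± 0.13 at 24 h, and SPI1, which encodes PU.1, by 1.58 ± 0.19 at 24 h. IRF8 and GFI1, factors of monocyte and granulocyte fate, fell by 1.91 ± 0.09 and 1.81 ± 0.12. CEBPA fell by 0.62 ± 0.08 at 4 h. CEBPB rose by 0.28 ± 0.10 at 24 h (adjusted p = 0.0436), which passed in 10 of 22 alternatives.

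Of 5 phagocyte NADPH oxidase genes measured, 3 rose at 90 min and at 4 h, and 3 rose and 1 fell at 24 h. NCF1, NCF4 and RAC2 rose at 24 h by 1.76 ± 0.13, 1.68 ± 0.08 and 1.17 ± 0.07, and CYBB, the catalytic subunit, was higher at 90 min and lower at 24 h (−1.36 ± 0.24). Of 15 maturation genes of monocytes and granulocytes 3 rose at 90 min, 6 at 4 h and 7 at 24 h, where 2 fell. Those that fell were CSF3R (−0.57 ± 0.16) and MNDA (−0.34 ± 0.05), the latter higher at 90 min and 4 h. CD14, CD163, FCGR1A, VCAN, LCN2 and LTF had means under 4 in every group. CD14 and CD163 were among the 6 higher at 4 h. The integrin subunit ITGAM rose at 24 h by 1.57 ± 0.08. FPR1, the formyl peptide receptor, rose then by 5.80 ± 0.33 and the lectin receptor CLEC7A by 1.86 ± 0.40, both from low signal in vehicle (2.30 and 2.78), so no fold is given. Of 10 other EF-hand genes measured 1 rose and 2 fell at 90 min, 1 rose and 4 fell at 4 h, and 6 rose and 2 fell at 24 h. Among them CAPN2, a calpain subunit, rose by 1.14 ± 0.06 at 24 h, and PPP3R1, the regulatory subunit of calcineurin, fell by 1.08 ± 0.13 at 4 h.

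By the pattern over the 12 arrays, the genes most like S100A8 among 9540 with a mean of at least 4 were HIPK2, DUSP5, FGR, NFIL3 and BTG1 (Pearson r 0.979 to 0.982), and those most like S100A9 were MICAL2, CCL2, LPXN, MCEMP1 and LAT (0.986 to 0.993). DUSP5 went from 5.64 in vehicle to 7.55, 7.56 and 7.75, and CCL2 from 8.38 to 10.13, 10.54 and 12.64. The 12 values fall into 4 groups, so r here reads mainly the order of 4 group means.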

How the data were processed

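Total RNA of 12 samples of U937 cells was hybridised to Affymetrix arrays of 54675 probe sets. The deposited log2 values were made by the authors with Affymetrix Expression Console and GCRMA, per the submitters' processing notes; versions are not given in the sources used here. GCRMA as usually run corrects for background and normalizes between arrays, which compresses low values; array medians ranged from 2.84 to 3.10. Array data give no depth, and the number of arrays limits the precision. The platform table gave 41097 probe sets 1 symbol, 1801 several and 11777 none, and 41043 of the first matched RefSeq genes. The probe set with the highest mean stood for each of 19775 genes, of which 51.7% had a mean under 4.

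All 12 arrays entered 1 limma fit of group means (limma 3.58.1 in R 4.3.3, eBayes with a trend on the mean, no replicate block), and p-values were adjusted over all genes of a comparison. The fit was tested on simulated data. By their labels' replicate numbers, vehicle and 90 min arrays deviated together (r = 0.26, 0.23 and 0.12 for the 3 pairs over 9551 genes), so a block on these arrays was run as well. The members and gene lists were chosen with earlier results of these data known. Named genes are all 10 members, up to 4 called genes of each list with the largest difference from vehicle, partners and receptors described with a member, CEBPA, CEBPB and CEBPE, and the 5 genes most like S100A8 and S100A9. Some list genes of low signal and the maturation genes that fell were named as well. The lists are other S100 genes, receptors, binding partners, myeloid transcription factors, NADPH oxidase, maturation genes, other EF-hand proteins and cell type markers. Alternatives covered the probe set rule, normalization, filters on dim genes, array weights, the samples fitted, a replicate block and leaving out each array. S100A7A and the TATA box window were chosen after values or sequences were seen.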

Additional observations from a re-analysis of the deposited data

Results flagged for a closer look

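Differences between the JS-K times passed the limma test for several members. From 90 min to 4 h the log2 difference was 0.55 for S100A10 and 0.28 for S100A11. From 4 h to 24 h it was 1.28 for S100A10, 0.62 for S100A11, 1.10 for S100A12, 0.41 for S100A4, 0.91 for S100A6, 1.16 for S100A9 and 0.72 for S100B. Between 90 min and 24 h it was 1.83 for S100A10, 0.90 for S100A11, 1.09 for S100A12, 0.42 for S100A4, 0.87 for S100A6, 1.26 for S100A9 and 0.69 for S100B. The last (adjusted p = 0.0286) did not pass without 90 min replicate 1 (0.103) or 2 (0.0925), without 24 h replicate 1 (0.117) or 2 (0.0849), with quantile normalization (0.0665) or with array medians subtracted (0.0632). With the mean of both probe sets of S100A6 its differences were 0.16 from 4 h (adjusted p = 0.767) and 0.34 from 90 min (adjusted p = 0.226), and its dimmer probe set alone gave −0.59 and −0.19.

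Probe sets that did not stand for their gene also gave calls against vehicle. The second probe set of S100A10 differed by 0.97 at 90 min, 2.64 at 4 h and 3.79 at 24 h, more than the brighter one at each time; the difference between the probe sets was not tested. The second probe set of S100A8 stayed under 2.8 on every array and differed by 0.20 at 4 h and 0.15 at 24 h, and that of S100B by 0.20 at 4 h. The poly-A spikes, which the comparisons do not use, had means of 7.02 at 4 h and 8.47 at 24 h against 3.04 in vehicle.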

How the results depend on the processing

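Of 1324 values of the S100 members under alternatives, 1241 kept their direction and side of the threshold, 17 lost a call, 24 gained one, 3 reversed and 39 moved. All 3 reversals came with array weights, which did not fully converge and ran from 0.0413 to 29.0 within the 4 h group: S100P at 4 h against vehicle was 0.16, and at 4 h against 90 min S100A6 was 0.17 and S100B 0.43. Array weights also gave 2 members lower at 90 min, 7 higher at 4 h and 7 higher at 4 h than at 90 min. That last count was 1 with array medians subtracted and 1 with only the 2 groups compared. How many of all genes were called under an alternative was not counted, apart from the block on vehicle and 90 min arrays below. The counts of members and list genes under alternatives are therefore not read as results about these genes. Quantile normalization moved the median difference of all genes from vehicle by −0.01, −0.05 and −0.05 at the 3 times. Subtracting medians moved it by 0.03, −0.03 and −0.07. In the main fit this median was 0.01, 0.06 and 0.06.

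For genes of the lists, counted in either direction, array weights gave 4, 8 and 9 of the other S100 genes at 90 min, 4 h and 24 h, 6, 10 and 10 receptors, 9, 14 and 15 maturation genes, and at 90 min 16 partners, 7 transcription factors and 7 EF-hand genes (10 at 4 h). The other S100 genes at 4 h were 1 with constant spread, 1 without the dimmest genes, 2 with every probe set on its own, 2 with quantile normalization, 2 with array medians subtracted, 1 with only the 2 groups compared and 0 among genes with a mean of at least 4, and at 24 h 8 and 0 under the last pair. With only the 2 groups compared, NADPH oxidase genes at 4 h were 0 and maturation genes at 24 h 14. EF-hand genes were 1 at 90 min with probe sets averaged and 4 at 24 h with medians subtracted. Averaging probe sets reversed AHNAK at 4 h (−0.018) and TLR4 at 24 h (−0.018), array weights FCN1 at 4 h (0.13), and quantile normalization AGER (−0.041) and S100A14 (−0.020) at 24 h. The cause was not tested.

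Leaving out each array in turn, members lower at 4 h ranged from 0 to 2 and members higher at 4 h than at 90 min from 1 to 2. Other S100 genes ranged from 0 to 1 at 90 min, 1 to 7 at 4 h and 2 to 8 at 24 h, partners at 90 min from 3 to 10, NADPH oxidase genes at 4 h from 1 to 4, maturation genes at 24 h from 8 to 14 and EF-hand genes at 24 h from 4 to 9. Where the dimmest genes were left out S100A12 had no value.

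Replicate numbers went with shared deviations from group means in all 3 pairs of vehicle and 90 min arrays, but not in all 3 of any other 2 groups (r from −0.15 to 0.30 over 18 pairs, 6 above 0.1). With the replicate number as a block the members called against vehicle were 2, 4 and 8, and no member's call changed. With the block on the vehicle and 90 min arrays alone, chosen after seeing the data, 2 members were higher and 0 lower at 90 min, S100A8 by 1.75 (adjusted p = 6.19e-05) and S100A9 by 1.11 (adjusted p = 0.00115), and 1 of the other S100 genes was called (S100A2).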
